A study of Mus musculus with 4 samples.

Results

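Ribosome biogenesis was examined through 44 named genes for RNA polymerase I subunits, small nucleolar ribonucleoprotein (snoRNP) proteins, rRNA processing factors and nucleolar proteins. Of the 44 genes, 43 were measured by a probe set annotated to 1 gene, out of 19938 genes so measured, and the level of Noc2l was not analysed here. The series holds 4 arrays of labelled cDNA from cells sorted out of small intestinal crypts of adult mice, with 1 array in each of 4 groups. The Zip7 KO groups came from mice with both copies of Slc39a7 (Zip7, a zinc transporter of the endoplasmic reticulum and Golgi) floxed, as Zip7flox/flox, and the control groups from Zip7flox/+ mice. All of these mice also carried villin-CreERT2, which acts in the intestinal epithelium, and the allele Lgr5-EGFP-ires-CreERT2, and all had received tamoxifen for 2 days. The controls, having 1 floxed copy and the same drivers, are thus expected to lack 1 copy. Each genotype gave a fraction labelled Lgr5-Hi and a fraction labelled Lgr5-Med (Lgr5-Mid in the titles). How many animals gave each array, and whether fractions of a genotype shared animals, is not in the labels.

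Some facts of the arrays bear on all comparisons. Lgr5 itself, the stem cell receptor behind the sort, ran against the labels, at 7.93 and 7.79 in the Zip7 KO and control arrays labelled Lgr5-Hi and at 11.24 and 10.97 in those labelled Lgr5-Med. The labels are kept as given. An exchange of them in both genotypes would turn the sign of the fraction comparisons and only rename the genotype comparisons. It would also turn the sign of the genotype difference under Lgr5-Hi minus that under Lgr5-Med. Xist was at 5.59 and 5.43 in the Zip7 KO arrays and at 11.64 and 11.84 in the controls, so that genotype and the sex of the mice cannot be told apart. The targeted gene Slc39a7 differed between Zip7 KO and control by 0.10 under the label Lgr5-Hi and by -0.39 under Lgr5-Med, and whether its probes lie in the floxed part was not known here. The epithelial gene Epcam lay between 11.57 and 11.66 on the 4 arrays, but the 8 epithelial markers as a list were less even. For Zip7 KO minus control they spanned -0.33 to 0.18 under Lgr5-Hi and -0.30 to 0.07 under Lgr5-Med. For Lgr5-Hi minus Lgr5-Med they spanned -0.18 to 0.56 in Zip7 KO and -0.07 to 0.44 in control. Levels are RMA values on the log2 scale and differences are differences of these values, so that 1 unit is a 2-fold change. To tell expression from background, percentile 95 of 1207 chemosensory receptor genes (olfactory, vomeronasal and trace amine) served as a floor, which lay between 6.10 and 6.25. All 43 measured members were above it on all 4 arrays. Each group being a single array, its spread cannot be known, no difference below was tested, and precision is limited by the number of arrays.

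Ribosomes are built in the nucleolus, where RNA polymerase I transcribes the rRNA precursor. Box C/D and box H/ACA snoRNPs then guide the methylation and pseudouridylation of the precursor, the small subunit processome cleaves it, and further factors assemble and release the large subunit. Transcription of many of these genes is known to follow the growth regulator MYC, and in the crypt they are known as genes of proliferating stem and progenitor cells.

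**Figure D1:**
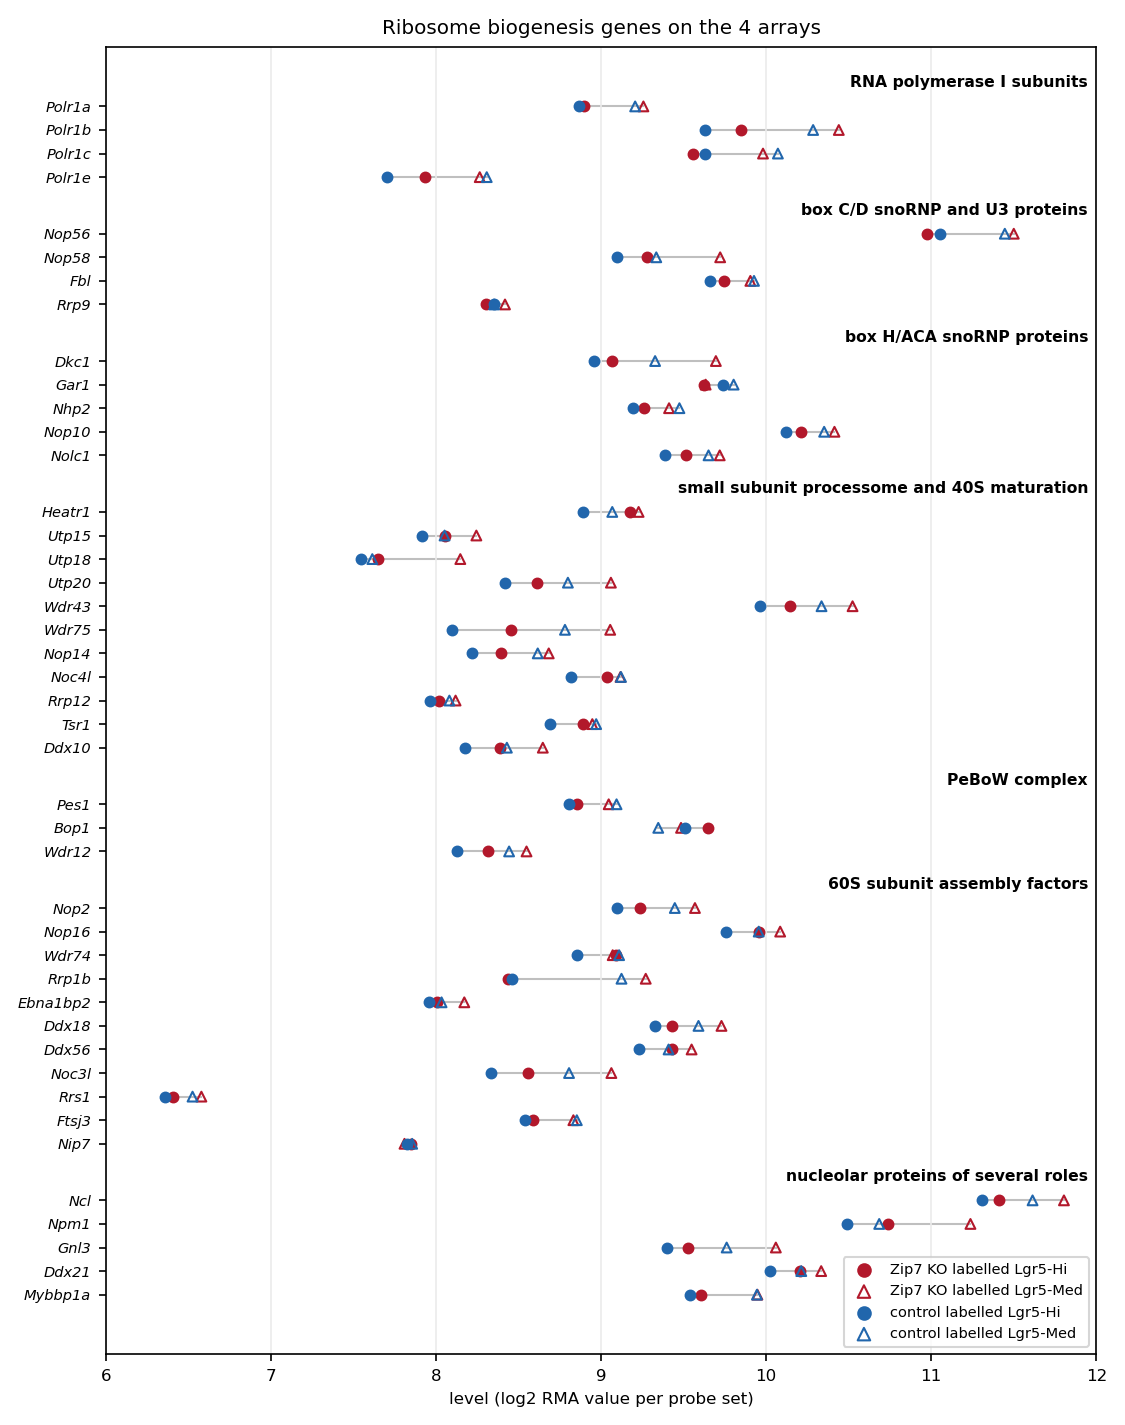
Level of each of the 43 measured ribosome biogenesis genes (log2 RMA value, horizontal axis) on each of the 4 arrays, grouped by role, with Zip7 KO in red and control in blue, and with filled circles for the label Lgr5-Hi and open triangles for Lgr5-Med. Grey lines join the lowest and highest array of a gene. In 32 of the 43 genes both triangles lie to the right of both circles.

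The first comparison set Zip7 KO against control under the label Lgr5-Hi. Most members were slightly higher in the Zip7 KO array, 38 of 43, where 55% of the 11988 genes compared were higher and 45% lower. The median difference was 0.13 (1.09-fold), beside 0.02 over the genes compared, and the members spanned -0.11 to 0.35. The median was 0.06 with the loess trend removed, beside -0.000673 over all genes, and 0.07 with quantile normalisation, beside -0.02. No member reached 1.5-fold in either direction, which 1.08% of these genes did upwards and 0.926% downwards, or 2-fold, which 0.25% and 0.234% did. The members highest in Zip7 KO were Wdr75 at 0.35, a subunit of the small subunit processome, and Heatr1 at 0.29, which couples that complex to RNA polymerase I. The nucleolar chaperone Npm1 followed at 0.25, the large subunit factor Wdr74 at 0.24, the RNA polymerase I subunit Polr1e at 0.23 and the large subunit factor Noc3l at 0.22. The 5 members that were lower lay close to 0, with the H/ACA protein Gar1 at -0.11, the C/D core protein Nop56 at -0.08, Polr1c, shared by RNA polymerases I and III, at -0.08, the snoRNP protein Rrp9 at -0.05 and Rrp1b at -0.03.

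Under the label Lgr5-Med the members were again mostly higher in Zip7 KO, here 32 of 43, where 44.1% of the 12243 genes compared were higher and 55.8% lower. The median was 0.12 (1.09-fold), beside -0.03 over the genes compared. No member passed 1.5-fold, which 0.425% of these genes did upwards and 2.1% downwards, or 2-fold, which 0.0653% and 0.621% did. Npm1 had the highest difference, 0.55 (1.47-fold), and the processome subunit Utp18 was at 0.53 (1.45-fold). They were followed by Nop58 at 0.39, a core protein of C/D snoRNPs, Dkc1 at 0.37, the pseudouridine synthase dyskerin, Gnl3 (nucleostemin) at 0.30 and Wdr75 at 0.27. Dkc1 lies on the X chromosome, and genotype cannot be told apart from sex here. At the other end were Gar1 at -0.17, Polr1c at -0.09, the H/ACA protein Nhp2 at -0.06, and Pes1, Nip7 and Polr1e at -0.05, -0.05 and -0.04. After median centring of the arrays the median was 0.20, beside 0.05 over all genes, 41 of the 43 were higher, as were 60.5% of the genes compared, and Npm1 and Utp18 then passed 1.5-fold.

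The signs of the genotype differences were compared between the labels. Of the 43, 29 were higher in Zip7 KO under both, which 30% of the 11827 genes compared in both comparisons were. Only Gar1 and Polr1c were lower under both, where 30.8% of the genes compared were, and 12 members had opposite signs. The rest of the genes compared had opposite signs or a difference of 0. The genotype difference under Lgr5-Hi minus that under Lgr5-Med had a median of 0.02 over the members, beside 0.06 over the genes compared, and 25 of 43 members were above 0, as were 60.5% of the genes compared. It was lowest for Utp18 at -0.43, Npm1 at -0.31, Dkc1 at -0.26, Nop58 at -0.21, Rrp1b at -0.17 and Gnl3 at -0.17. It was highest for Wdr74 at 0.28, Polr1e at 0.27, the small subunit factors Tsr1 and Noc4l at 0.22 each, and Nhp2 and Heatr1 at 0.13 each. Median centring moved the median of all genes in this contrast from 0.06 to -0.05 and that of the members to -0.09, and the quantile and loess alternatives gave the members -0.04 each. With median centring 39.6% of all genes were above 0 in this contrast, and 6 of the 43 members were.

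**Figure D2:**
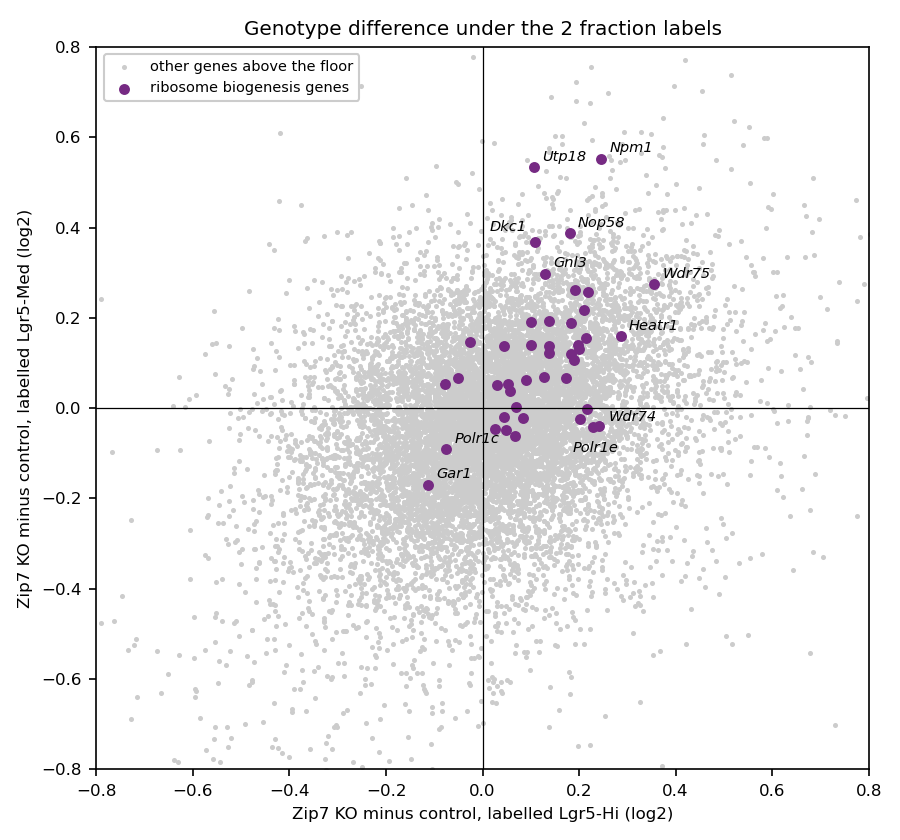
Zip7 KO minus control (log2) under the label Lgr5-Hi (horizontal) and under Lgr5-Med (vertical) for the 43 ribosome biogenesis genes (purple) and the other genes above the floor (grey), with genes beyond the axes not drawn. The upper right quadrant, higher in Zip7 KO under both labels, holds 29 of the 43, with Npm1 and Utp18 at its top.

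The remaining comparisons set the fraction labelled Lgr5-Hi against that labelled Lgr5-Med, which is the fraction with the higher Lgr5 level. Within Zip7 KO, 40 of 43 members were lower under the label Lgr5-Hi, where 50.7% of the 12114 genes compared were and 49.3% were higher. The median was -0.25, beside -0.0045 over the genes compared, a ratio of 0.843 of Lgr5-Hi over Lgr5-Med. Rrp1b, Dkc1, Wdr75 and Polr1b, a catalytic subunit of RNA polymerase I, were at least 1.5-fold lower, as were 3.56% of these genes, at -0.83, -0.63, -0.60 and -0.59. The next were Gnl3 and Nop56 at -0.53 each. The 3 members on the other side were Bop1 at 0.16, Nip7 at 0.04 and Wdr74 at 0.02, none of them 1.5-fold higher, as 5.9% of these genes were. None was past 2-fold, which 1.87% of these genes were upwards and 0.751% downwards.

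Within controls 41 of 43 members were lower under the label Lgr5-Hi, where 56.7% of the 12248 genes compared were and 43.3% were higher. The median was -0.28, a ratio of 0.823 of Lgr5-Hi over Lgr5-Med, beside -0.04 over the genes compared. Those at least 1.5-fold lower were Wdr75 at -0.68, Rrp1b at -0.66, Polr1b at -0.65 and Polr1e at -0.60, where 3.14% of these genes were. Noc3l and Polr1c came next at -0.47 and -0.44. Bop1 was higher at 0.16, the same size as in Zip7 KO, and Rrp9 was at 0.0013, where 2.3% of these genes were at least 1.5-fold higher. None was past 2-fold, which 0.669% of these genes were upwards and 0.523% downwards. With median centring only Wdr75 was past 1.5-fold here and 58.4% of all genes were higher, and with the loess trend removed Wdr75 and Polr1b did. Across both genotypes 39 of 43 members were lower under Lgr5-Hi in each, which 39.7% of the genes compared were, and Bop1 alone was higher in each.

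**Figure D3:**
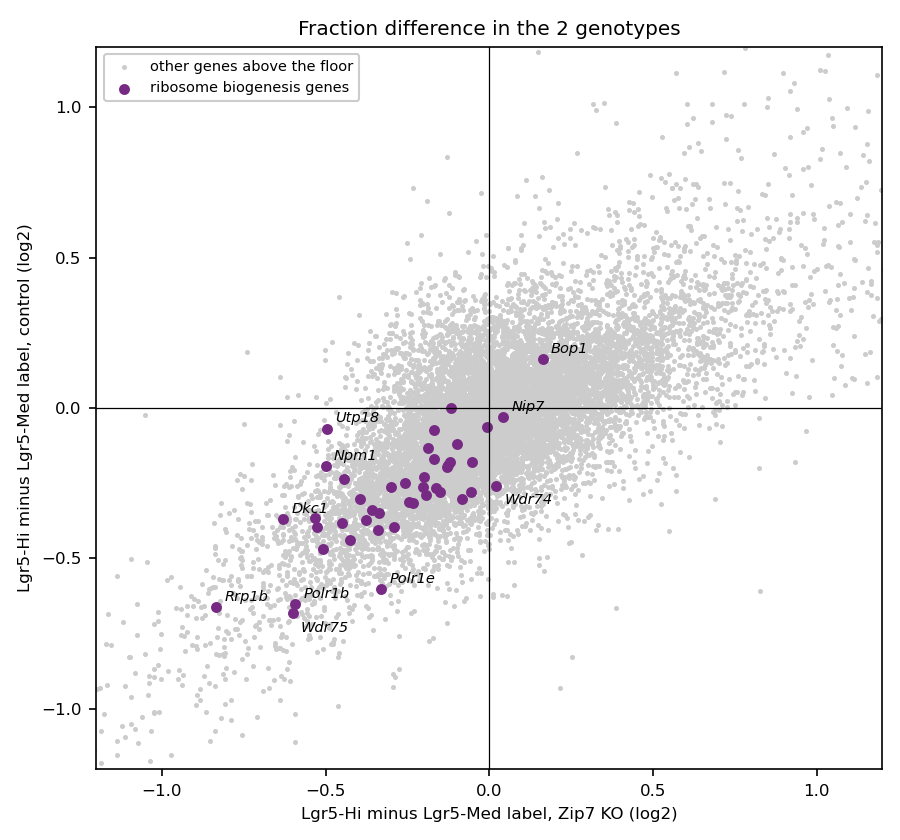
Label Lgr5-Hi minus label Lgr5-Med (log2) in Zip7 KO (horizontal) and in control (vertical) for the 43 ribosome biogenesis genes (purple) and the other genes above the floor (grey), with genes beyond the axes not drawn. The lower left quadrant, lower under the label Lgr5-Hi in both genotypes, holds 39 of the 43, and Bop1 stands alone in the upper right.

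The 4 arrays fell into a common order for many members. The control array labelled Lgr5-Hi had the lowest of the 4 values for 36 of 43 members, as it did for 28.6% of the 12404 genes above the floor on any array. The Zip7 KO array labelled Lgr5-Med had the highest for 31, as for 25.6% of these genes. Both Lgr5-Med arrays lay above both Lgr5-Hi arrays for 32 members, beside 29.9% of genes. Both Zip7 KO arrays lay above both controls for 6 members, beside 14.2% of genes, and these were Heatr1, Utp15, Utp18, Nop16, Ddx56 and Npm1. The range over the 4 arrays had a median of 0.39 over the members, beside 0.32 over all genes above the floor. Among the members it went from 0.05 for Nip7 to 0.96 for Wdr75.

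Among the subunits of RNA polymerase I, all 4 were lower under the label Lgr5-Hi in both genotypes, beside 39.7% of the genes compared. The genotypes differed less. Polr1b stood at 9.85 and 10.44 in the Zip7 KO arrays labelled Lgr5-Hi and Lgr5-Med, against 9.63 and 10.28 in the controls. Both fractions were a little higher in Zip7 KO, by 0.21 and 0.16. Polr1e was at 7.93 and 8.26 in Zip7 KO, against 7.71 and 8.31 in control, so that its low value is that of the control array labelled Lgr5-Hi. Polr1a, the largest catalytic subunit, had the narrowest range, with 8.90 and 9.26 in Zip7 KO and 8.87 and 9.21 in control, and its genotype differences were 0.03 and 0.05. Polr1c went the other way between genotypes, at 9.56 and 9.98 in Zip7 KO and 9.63 and 10.07 in control.

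The box C/D proteins bind the snoRNAs that direct ribose methylation. Nop58 was at 9.28 and 9.72 in the Zip7 KO arrays labelled Lgr5-Hi and Lgr5-Med, against 9.10 and 9.33 in control. Its paralogue and partner Nop56 was at 10.97 and 11.50, against 11.05 and 11.45. The fraction order was the same for both proteins, whereas the Zip7 KO arrays were higher at both labels for Nop58 only. Rrp9, which belongs to the snoRNP of early precursor cleavage, had 8.30 and 8.42 in Zip7 KO and 8.35 in either control array. For Fbl (fibrillarin), the methyltransferase, a pair of probe sets disagreed. The brighter one, used here, gave genotype differences of 0.08 and -0.02 under Lgr5-Hi and Lgr5-Med, and the other gave -0.34 and -0.37. RefSeq also lists a pseudogene, Fbl-ps2, so the direction for Fbl is uncertain.

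The box H/ACA proteins bind the snoRNAs that direct pseudouridylation. Dkc1, their catalytic subunit, stood at 9.07 and 9.70 in the Zip7 KO arrays labelled Lgr5-Hi and Lgr5-Med, against 8.96 and 9.33 in control. The Zip7 KO array labelled Lgr5-Med thus stood above the other 3. The snoRNP chaperone Nolc1 was at 9.52 and 9.72 in Zip7 KO, against 9.39 and 9.65. Gar1 was at 9.63 in either Zip7 KO array, against 9.74 and 9.80 in control, and it is the member with its Zip7 KO values below both controls. The small partners Nhp2 and Nop10 ranged over 9.19 to 9.47 and 10.12 to 10.41.

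The small subunit processome and maturation factors numbered 11. All were higher in Zip7 KO under Lgr5-Hi, with a median of 0.19, and 9 of 11 were under Lgr5-Med, also with a median of 0.19. Of all genes compared, 55% and 44.1% were higher. All 11 were lower under the label Lgr5-Hi in both genotypes, beside 39.7% of the genes compared. Their medians were -0.26 in Zip7 KO and -0.28 in control. Wdr75 had the widest range, with 8.45 and 9.06 in the Zip7 KO arrays labelled Lgr5-Hi and Lgr5-Med, against 8.10 and 8.78 in control. Utp20, a scaffold of the complex, was at 8.61 and 9.06, against 8.42 and 8.80. In both genes each Zip7 KO array lay above the control array of its label. Rrp12, a factor for nuclear export of the subunit, had the narrowest range, at 8.02 and 8.12 in Zip7 KO and 7.96 and 8.08 in control. Utp18 was at 7.65 and 8.15 in Zip7 KO, against 7.55 and 7.61, and only its Zip7 KO array labelled Lgr5-Med stood apart. The RNA helicase Ddx10 and the factors Utp15, Wdr43, Nop14 and Heatr1 were higher in Zip7 KO under both labels, by 0.07 to 0.29.

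The PeBoW complex (Pes1, Bop1 and Wdr12), which acts in large subunit assembly, was split between fractions. Wdr12 was at 8.32 and 8.55 in the Zip7 KO arrays labelled Lgr5-Hi and Lgr5-Med, against 8.13 and 8.44 in control. Bop1 was at 9.65 and 9.48, against 9.51 and 9.35, and ran opposite to its partners between the fractions. Pes1 was at 8.85 and 9.05, against 8.81 and 9.09. Wdr12 has another, dimmer probe set that gave 0.32 and -0.07 for the genotype differences, where the one used gave 0.19 and 0.11.

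Of the other large subunit factors, 10 of 11 were higher in Zip7 KO under Lgr5-Hi and 8 of 11 under Lgr5-Med. The shares over all genes compared were 55% and 44.1%. Rrp1b, a nucleolar protein homologous to a yeast factor of large subunit processing, was at 8.44 and 9.27 in the Zip7 KO arrays labelled Lgr5-Hi and Lgr5-Med, against 8.46 and 9.12 in control. Noc3l was at 8.56 and 9.06, against 8.34 and 8.81. In both genes the Lgr5-Med arrays were above both Lgr5-Hi arrays, and in Noc3l Zip7 KO was also higher within each fraction. Nip7 was the member closest to constant, with 7.85 and 7.81 in Zip7 KO and 7.82 and 7.86 in control. The rRNA methyltransferases Nop2 and Ftsj3 were lower under the label Lgr5-Hi in both genotypes, with Nop2 at -0.34 in Zip7 KO and -0.35 in control and Ftsj3 at -0.25 and -0.31. The helicase Ddx18 differed between genotypes by 0.10 and 0.14, and by 0.08 and 0.19 with its other probe set.

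The nucleolar proteins with several roles were all higher in Zip7 KO under both labels, beside 30% of the genes compared in both. Npm1 stood at 10.74 and 11.24 in the Zip7 KO arrays labelled Lgr5-Hi and Lgr5-Med, against 10.49 and 10.68 in control. There are 3 further probe sets annotated to Npm1 together with Gm15484, and they gave smaller genotype differences, of 0.11 to 0.21 under Lgr5-Hi and 0.22 to 0.39 under Lgr5-Med. Gnl3, named nucleostemin for its level in stem cells, was at 9.53 and 10.06 in Zip7 KO, against 9.40 and 9.76. The helicase Ddx21, which acts on RNA polymerase I and II transcription, was at 10.21 and 10.33, against 10.02 and 10.21. Nucleolin (Ncl) was at 11.41 and 11.80, against 11.31 and 11.61, and Mybbp1a, a nucleolar corepressor, at 9.61 and 9.95, against 9.54 and 9.94. For Mybbp1a the genotype differences were only 0.07 under Lgr5-Hi and 0.0027 under Lgr5-Med. The first turned sign with the loess trend removed and the second with quantile normalisation.

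Other genes of the same pathway were counted from lists. Of 99 further rRNA processing and subunit assembly factors, 84 were higher in Zip7 KO under Lgr5-Hi (median 0.12) and 63 under Lgr5-Med (median 0.09). The shares over all genes compared were 55% and 44.1%. Of the 99, 0 passed 1.5-fold in either comparison. Under the label Lgr5-Hi 86 of the 99 were lower in each genotype, with medians of -0.17 in Zip7 KO and -0.23 in control. Of all genes compared, 50.7% were lower in Zip7 KO and 56.7% in control. The processome factor Ngdn was highest among them under Lgr5-Hi, at 0.56, followed by Nol11 at 0.43 and the kinase Riok2 at 0.42, while the exosome subunit Exosc3 was at -0.32 and the helicase Ddx24 at -0.26. Under Lgr5-Med the H/ACA assembly factor Naf1 was at 0.56, Nol10 at 0.44, the large subunit factor Brix1 at 0.43 and Sbds, which acts in late large subunit maturation, at -0.32. Naf1 was also among the lowest between fractions, at -0.94 in Zip7 KO and -0.76 in control. Ngdn, at 0.41, was the highest of these factors under the label Lgr5-Hi within Zip7 KO.

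Between genotypes the other RNA polymerase I machinery had members on either side of 0. Between fractions most were lower under the label Lgr5-Hi, 7 of 8 in Zip7 KO (median -0.10) and 8 of 9 in control (median -0.25). Of all genes compared, 50.7% were lower in Zip7 KO and 56.7% in control. The initiation factor Rrn3 was higher in Zip7 KO, by 0.39 under Lgr5-Hi and 0.26 under Lgr5-Med. Ubtf, the architectural factor of rDNA, was at -0.23 and -0.19, and Taf1c, of the promoter selectivity complex, was at -0.25 under Lgr5-Hi and higher by 0.20 in the control array labelled Lgr5-Hi than in that labelled Lgr5-Med. Rrn3 and Ubtf were named after their values were seen. Among the pathway genes the genotype difference under Lgr5-Hi exceeded that under Lgr5-Med most for Ngdn at 0.67, Utp14a at 0.55 and Riok1 at 0.51, and lay furthest below it for Pa2g4 at -0.29, Exosc3 at -0.23 and Taf1c at -0.23. Of the other RNA polymerase I machinery, 5 of 8 genes compared were higher in Zip7 KO under Lgr5-Hi and 3 of 9 under Lgr5-Med. The shares over all genes compared were 55% and 44.1%.

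Myc itself differed between fractions and hardly between genotypes. It was at 9.97 and 11.14 in the Zip7 KO arrays labelled Lgr5-Hi and Lgr5-Med, against 9.90 and 11.17 in control. The fraction differences were -1.17 and -1.27, past 2-fold, and the genotype differences were 0.07 and -0.03. The MYC network list of 11 genes lay on both sides of 0. Under the label Lgr5-Hi 7 were higher and 4 lower in Zip7 KO (median 0.05). In control 5 were higher and 6 lower (median -0.04, or 0.05 with median centring). Of all genes compared, 49.3% were higher in Zip7 KO and 43.3% in control. Between genotypes 5 of the 11 were higher in Zip7 KO under Lgr5-Hi (median -0.02) and 3 under Lgr5-Med (median -0.16). The shares over all genes compared were 55% and 44.1%. The MYC antagonist Mxd1 was at -0.46 in Zip7 KO under Lgr5-Med and higher under the label Lgr5-Hi within Zip7 KO by 0.43, Mycn was at -0.33 under Lgr5-Med, and Mlx was higher under the label Lgr5-Hi, by 0.74 in Zip7 KO and 0.33 in control. Of 18 genes of purine, pyrimidine and polyamine synthesis, which supply growing cells with nucleotides, 15 were lower under the label Lgr5-Hi in each genotype. Their medians were -0.26 in Zip7 KO and -0.27 in control, and 50.7% and 56.7% of all genes compared were lower. Prps2 was at -0.92 in Zip7 KO and Ppat at -0.82 in control, both enzymes of early purine synthesis, whereas Odc1 was higher by 0.24 in either genotype. Between genotypes 14 and 12 of the 18 were higher in Zip7 KO under Lgr5-Hi and Lgr5-Med, beside 55% and 44.1% of all genes compared.

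**Figure D4:**
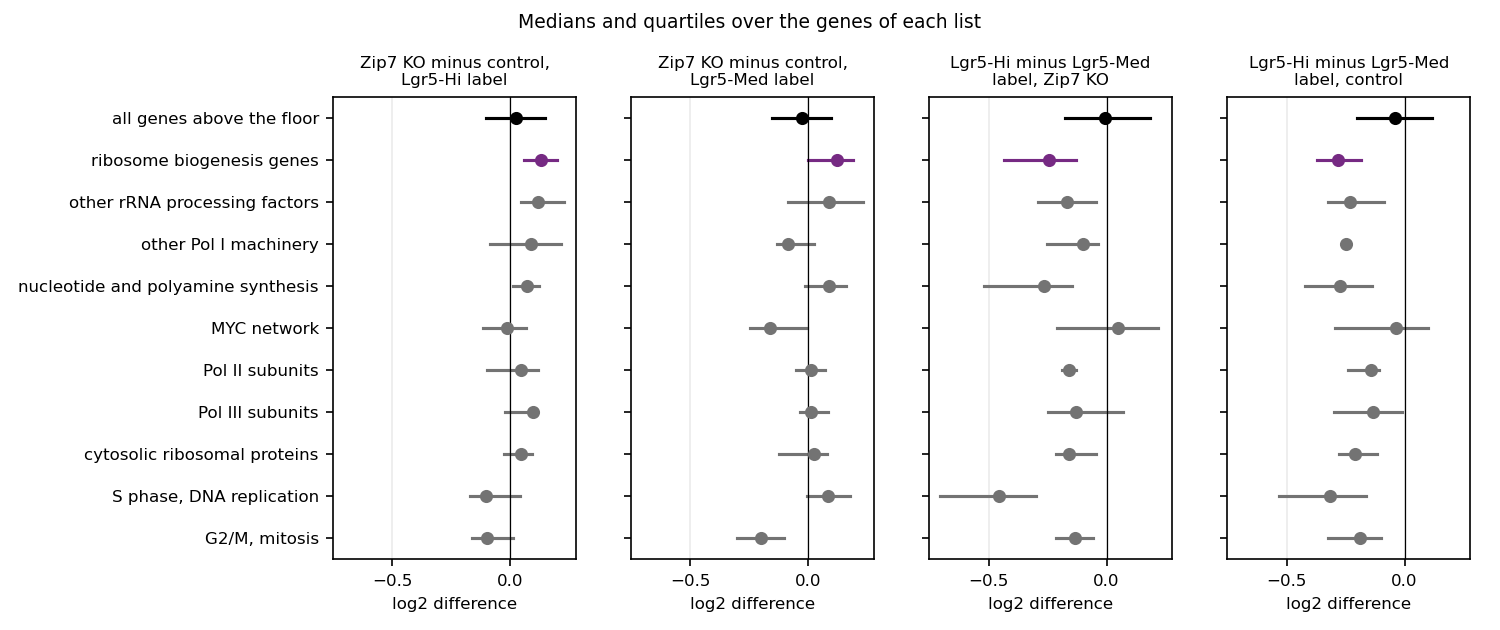
Median (point) and quartiles (line) of the log2 difference over the genes of each list in the 4 comparisons, with all genes above the floor in black and the 43 ribosome biogenesis genes in purple. The ribosome biogenesis genes have medians of 0.13 and 0.12 for Zip7 KO minus control and of -0.25 and -0.28 between the fractions.

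Other lists are set beside these values. Of all genes compared, 55% were higher in Zip7 KO under Lgr5-Hi and 44.1% under Lgr5-Med. Of 9 housekeeping genes measured, 6 were higher in Zip7 KO under Lgr5-Hi and 7 under Lgr5-Med, with medians of 0.11 and 0.08, near those of the ribosome biogenesis genes, and their fraction medians were -0.11 in Zip7 KO and -0.02 in control. Of 53 cytosolic ribosomal protein genes measured, 37 were higher in Zip7 KO under Lgr5-Hi and 28 under Lgr5-Med, with medians of 0.05 and 0.02, which turned to -0.02 and -0.03 with the loess trend removed, the one under Lgr5-Med also to -0.02 with quantile normalisation. Between fractions their medians were -0.16 in Zip7 KO and -0.21 in control. The S phase and DNA replication genes had a median of -0.10 under Lgr5-Hi, with 11 of 40 higher, and of 0.08 under Lgr5-Med, with 29 of 40 higher. Their fraction medians were -0.46 in Zip7 KO and -0.32 in control. The G2/M and mitosis genes had a median of -0.10 under Lgr5-Hi, with 10 of 34 higher in Zip7 KO. Under Lgr5-Med it was -0.20, with 3 of 34 higher. The fraction medians of this list were -0.14 in Zip7 KO and -0.19 in control. The subunits of RNA polymerases II and III had genotype medians of 0.01 to 0.09 and fraction medians of -0.13 to -0.16. How these lists differ from the ribosome biogenesis genes was not tested.

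Markers of other cell types differed between the fractions and the genotypes. Over all genes compared, 45% were lower in Zip7 KO under Lgr5-Hi and 55.8% under Lgr5-Med. Under the label Lgr5-Hi 39.7% were lower and 32.3% higher in both genotypes. In bulk RNA fewer cells of a type and less RNA per cell cannot be told apart. Under the label Lgr5-Hi 17 of 17 stem cell markers were lower in both genotypes, with medians of -1.39 in Zip7 KO and -1.21 in control, and their summed linear level was 16040.5 and 40416 in the Zip7 KO arrays labelled Lgr5-Hi and Lgr5-Med, against 18091 and 37095 in control. The enteroendocrine markers were higher in 12 of 12 cases in both genotypes, with medians of 2.65 and 2.57, and summed to 16928 and 2374 in Zip7 KO, against 18418 and 3003. All 8 Paneth and all 8 goblet cell markers were higher as well, with medians of 1.62 and 1.43 in Zip7 KO and 1.02 and 0.98 in control. Between genotypes 14 of 15 lymphocyte and myeloid markers were lower in Zip7 KO under Lgr5-Hi and 13 of 14 under Lgr5-Med, and their summed level was 5399 and 6255 in the Zip7 KO arrays, against 7318 and 9314 in control. Cd52 and Csf1r of that list were below the floor on all arrays. Enterocyte markers were lower in Zip7 KO in 18 of 18 cases under Lgr5-Med (median -0.41), beside a median of 0.02 under Lgr5-Hi. Paneth cell markers were lower in Zip7 KO in 7 of 8 cases under Lgr5-Hi (median -0.83) and in 8 of 8 under Lgr5-Med (median -1.50), and 12 of 12 interferon-stimulated genes were lower under both labels, with medians of -1.35 and -1.56. The ER chaperone and ER-associated degradation genes were higher in Zip7 KO in 18 of 18 cases under Lgr5-Hi (median 0.84) and in 16 of 18 under Lgr5-Med (median 0.21). The part of these cell types and of the ER genes in the ribosome biogenesis differences was not tested.

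Promoter windows were read for 39 of the 44 genes from RefSeq on GRCm38.p6, from 250 bases before to 50 bases after the start of the gene. The motifs searched were chosen with earlier results of these data known, and a role of the factors that bind them was not tested. Bop1, Fbl, Rrp12, Rrs1 and Npm1 are not in that table. The E-box CACGTG, the site that MYC and related factors can bind, was found in 7 of the 39 (17.9%), beside 11.6% of 9920 genes above the floor and 8.09% of all 27025 genes with a window. These were Utp18, Utp20, Wdr43, Tsr1, Pes1, Nop2 and Mybbp1a. The ETS motif CCGGAAGT, on either strand, was found in 10 (25.6%), beside 8.5% of genes above the floor and 4.31% of all genes. These were Polr1c, Polr1e, Gar1, Nhp2, Heatr1, Tsr1, Wdr74, Ebna1bp2, Noc2l and Nip7. The palindromic NRF1 motif was in 0 of 39, beside 2.2% of genes above the floor, and the YY1 motif AAGATGGC in 1, Ftsj3, beside 5.13%. Both strands were searched, and a match says only that the letters are there. The members past 1.5-fold between fractions, Polr1b, Wdr75, Rrp1b, Dkc1 and Polr1e, held no E-box in this window, and Polr1e alone held the ETS letters. The windows of Utp18, the highest of these 39 in the genotype comparison under Lgr5-Med, and of Wdr43, chosen after the matches were seen, show the E-box, that of Polr1e the ETS motif, and those of Polr1b and Wdr75 neither. They are printed in the direction of the gene with the motif in capitals, from chr11:93885717-93886016 (minus strand), chr17:71615965-71616264 (plus), chr4:45018359-45018658 (plus), chr2:129100746-129101045 (plus) and chr1:45794916-45795215 (plus), in the order of the lines.
Utp18: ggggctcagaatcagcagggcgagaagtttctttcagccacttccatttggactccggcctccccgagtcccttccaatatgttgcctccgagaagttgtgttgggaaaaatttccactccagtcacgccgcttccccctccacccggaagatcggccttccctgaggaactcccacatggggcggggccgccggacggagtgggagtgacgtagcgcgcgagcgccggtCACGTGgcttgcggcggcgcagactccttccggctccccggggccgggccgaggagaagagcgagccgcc
Wdr43: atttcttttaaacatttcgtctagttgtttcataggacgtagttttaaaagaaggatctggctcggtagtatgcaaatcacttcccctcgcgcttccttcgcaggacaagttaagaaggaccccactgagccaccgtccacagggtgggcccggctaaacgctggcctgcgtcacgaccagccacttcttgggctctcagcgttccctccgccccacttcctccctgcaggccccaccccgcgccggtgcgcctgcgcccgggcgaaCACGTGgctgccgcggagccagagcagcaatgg
Polr1e: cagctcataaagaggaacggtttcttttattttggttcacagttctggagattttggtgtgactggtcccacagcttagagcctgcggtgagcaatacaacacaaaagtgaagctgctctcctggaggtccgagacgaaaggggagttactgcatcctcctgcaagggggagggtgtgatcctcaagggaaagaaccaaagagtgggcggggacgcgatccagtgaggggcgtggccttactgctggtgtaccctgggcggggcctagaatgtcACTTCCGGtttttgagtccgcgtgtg
Polr1b: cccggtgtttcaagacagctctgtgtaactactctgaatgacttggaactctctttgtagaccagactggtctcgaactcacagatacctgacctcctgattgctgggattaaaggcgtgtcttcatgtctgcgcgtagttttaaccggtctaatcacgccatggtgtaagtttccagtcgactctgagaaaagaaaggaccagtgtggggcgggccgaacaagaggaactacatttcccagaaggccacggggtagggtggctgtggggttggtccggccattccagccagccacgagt
Wdr75: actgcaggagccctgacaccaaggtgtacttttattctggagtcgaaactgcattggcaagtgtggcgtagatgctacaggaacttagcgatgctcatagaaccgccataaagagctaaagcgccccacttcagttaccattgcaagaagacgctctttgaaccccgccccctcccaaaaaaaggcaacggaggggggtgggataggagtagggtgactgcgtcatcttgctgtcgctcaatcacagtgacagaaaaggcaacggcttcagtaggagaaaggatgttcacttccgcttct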

How the data were processed

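For each probe set the authors deposited a log2 value made with RMA, per the submitters' processing notes. The sources used here give no software version, and log2 was taken from the values, which lay between 3.08 and 14.6. All 4 columns were used and 0 were left out. Probe sets with 1 gene symbol in the platform annotation were kept (21789 of 35557), and the brightest one on average gave the level of a gene. Of these, 21698 matched the RefSeq gene table by Entrez ID, and 0 symbols changed. A gene entered a comparison if it lay above the floor, percentile 95 of the receptor genes, on at least 1 of its 2 arrays.

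With 1 array per group no difference has a replicate check, and no p-value was computed. A fit of genotype plus fraction label, which would take their interaction as error, was not run. Differences of 2 arrays were counted as higher, lower, and past 1.5-fold and 2-fold. The members and the gene lists were chosen with earlier results of these data known. Named members are the 6 highest and 6 lowest in each comparison, those past 1.5-fold, and in each role the 2 with the widest range over the arrays and the one with the narrowest. Of the other pathway genes the 3 highest and 3 lowest in each comparison are named, and others are named as chosen after their values were seen. The calculation was run on simulated data with small noise, where 200 of 200 genes changed 2-fold were recovered at 1.5-fold. These genes were chosen well above the floor, so that recovery was practically given. The run checks the code only, and not whether differences of the size reported here can be told from noise. Alternatives were quantile normalisation, median centring, removal of a loess trend on level, the mean of all probe sets, no floor, and a floor at percentile 99. Python 3.11.15, pandas 2.3.3, numpy 2.4.6, statsmodels 0.14.6 and matplotlib 3.10.9 were used.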

Additional observations from a re-analysis of the deposited data

Results flagged for a closer look

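Members whose genotype difference had opposite signs under the 2 fraction labels are given here with the difference under Lgr5-Hi minus that under Lgr5-Med. With 1 array per group this difference was not tested, and most of the single values lie within 0.1 of 0. Of all genes compared under both labels, 30% were higher in both and 30.8% lower in both. The rest had opposite signs or a difference of 0. The value was 0.28 for Wdr74, 0.27 for Polr1e, 0.22 for Tsr1, 0.22 for Noc4l, 0.13 for Nhp2, 0.11 for Fbl, 0.10 for Pes1, 0.0724 for Nip7 and 0.0655 for Ftsj3, which were higher in Zip7 KO under Lgr5-Hi and lower under Lgr5-Med. It was -0.17 for Rrp1b, -0.13 for Nop56 and -0.12 for Rrp9, which ran the other way.

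The same holds for a pair of list medians. The other RNA polymerase I machinery had a median of 0.08 under Lgr5-Hi and -0.09 under Lgr5-Med, a difference of 0.17, and the S phase and DNA replication genes had -0.10 and 0.08, a difference of -0.19. Between fractions the sign differed between Zip7 KO and control for Wdr74 (0.28), Rrp9 (-0.12), Nip7 (0.0724) and the MYC network median (0.0883), given as Zip7 KO minus control and not tested.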

How the results depend on the processing

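The member medians in the 4 comparisons kept their sign under all 6 alternatives, but not all of these could have turned it. All 43 members were above the floor on all arrays, so leaving out the floor could not change a member value. The stricter floor only drops members, and the mean of all probe sets could change only Fbl, Wdr12 and Ddx18. The check therefore rests on quantile normalisation, median centring and loess. For Zip7 KO against control they lay between 0.06 and 0.13 under Lgr5-Hi and between 0.12 and 0.20 under Lgr5-Med, and between fractions from -0.27 to -0.25 in Zip7 KO and from -0.28 to -0.20 in control. The members higher in Zip7 KO numbered 33 to 38 under Lgr5-Hi and 30 to 41 under Lgr5-Med. Median centring gave 2 members at least 1.5-fold higher in Zip7 KO under Lgr5-Med, and in control it left 6 members higher and 1 at least 1.5-fold lower under the label Lgr5-Hi. With the loess trend removed these counts were 1, 4 and 2. The median of the genotype difference under Lgr5-Hi minus that under Lgr5-Med moved to -0.0922 with median centring. Over all genes centring also gave 88 genes at least 1.5-fold higher in Zip7 KO under Lgr5-Med, against 52, and 246 at least 1.5-fold lower under the label Lgr5-Hi in control, against 385. Small differences turned sign, all of members within 0.11 of 0. No member past 1.5-fold reversed. The causes were not tested. With a floor at percentile 99, 42 members remained, without Rrs1. No paired analysis was possible because the groups share only 1 replicate number, so that a replicate block has nothing to separate. A fit with the fraction label as a block for genotype, or genotype as a block for fraction, leaves 1 residual degree of freedom and was not run. Leaving out an array empties its group.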

Other observations

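Probe sets annotated to 51 genes of small nucleolar RNAs (snoRNAs), which the snoRNP proteins bind, were read too. These genes were chosen by symbol after the files were seen. Whether the probe sets read the mature small RNAs was not known here. Box H/ACA snoRNA genes were mostly lower in Zip7 KO, in 18 of 20 cases under Lgr5-Hi (median -0.26) and in 17 of 20 under Lgr5-Med (median -0.18), where 45% and 55.8% of the genes compared were lower. Snora20 was at 6.12 and 6.32 in the Zip7 KO arrays labelled Lgr5-Hi and Lgr5-Med, against 7.05 and 7.21 in control. The first of these values is below the floor of its array, 6.18, and the second is near its floor, 6.16. The size of the Snora20 difference is therefore limited by background. Snora44 was at 8.62 and 8.47 in Zip7 KO, against 9.23 and 9.47. Snora70 ran the other way, at 8.62 and 8.15 in Zip7 KO, against 8.12 and 8.01. The box C/D snoRNA genes were spread more evenly, with 16 of 26 lower under Lgr5-Hi (median -0.06) and 17 of 25 under Lgr5-Med (median -0.08). Snord104 was at 11.22 and 11.16 in Zip7 KO, against 11.86 and 11.94. The RNA of RNase MRP, Rmrp, which takes part in rRNA precursor cleavage, was at 12.57 and 12.53 in Zip7 KO, against 12.82 and 12.91.

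Over both snoRNA classes the median was -0.13 under Lgr5-Hi and -0.12 under Lgr5-Med, and it stayed below 0 under the 6 alternatives, between -0.18 and -0.04. Between fractions it was -0.07 in Zip7 KO and 0.01 in control, whereas the members had -0.25 and -0.28.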
